A study of Mus musculus with 7 samples.

Results

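Endothelial identity genes are the genes by which the cells that line blood vessels are recognised. The 34 genes described here were listed as pan-endothelial, sinusoidal or arterial genes and looked up by name in the authors' deposited table, and all 34 were present there, among 38924 genes in the count files. They were measured by messenger RNA sequencing of mouse fetal liver tissue at 12.5 days post coitum in 3 libraries from Pcbp2 knockout and 4 libraries from wild type. Pcbp2 encodes an RNA-binding protein with a preference for poly(C) sequence. The labels name no allele, strain, promoter or Cre driver for the knockout and give neither sex nor litter, and they do not say that each library came from a separate animal, so p-values reflect only the variation among the libraries. Reads in genes numbered 31898339 to 42378821 in the knockout libraries and 32240949 to 44544889 in the wild-type libraries. Levels are given in CPM, read counts scaled to TMM-adjusted library size. The limit set by a count of 0, taken as 3 reads, was 0.0662 to 0.102 CPM and covers counting error alone. Pcbp2 had 1.95 ± 0.486 CPM in knockout (SD, n = 3) and 295 ± 86.9 CPM in wild type (SD, n = 4), with wild type replicate 1 at 165 CPM.

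The vessels of the fetal liver are mostly sinusoids, wide and leaky capillaries between the cords of hepatoblasts and blood-forming cells. Endothelial cells hold together through adhesion proteins such as VE-cadherin, keep their identity through ETS and SOX transcription factors, and take an arterial character under Notch signalling. Sinusoidal endothelium also carries scavenger and hyaluronan receptors that other vessels largely lack. The members were split by these roles into 27 pan-endothelial, 3 arterial (Sox17, Dll4 and Notch4) and 4 sinusoidal genes (Stab1, Stab2, Lyve1 and Gpr182). The labelled tissue was fetal liver, whose hepatoblast genes summed to 7779 to 9969 CPM in knockout and 6277 to 13066 CPM in wild type. In such bulk samples a change in a cell type's share and a change in RNA per cell, upward or downward, cannot be told apart.

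Of the 34 members, 7 rose in the knockout livers and 0 fell (edgeR quasi-likelihood test, Benjamini-Hochberg adjusted p under 0.05 over 16226 tested genes). They were the pan-endothelial genes Emcn, Pecam1, Rasip1, Eltd1, Robo4 and Cdh5 and the arterial gene Sox17. Among all tested genes 1.59% rose and 3.43% fell. The members' median log2 fold change was 0.49, against 0.01 over all tested genes, and 32 of the 34 had a log2 fold change above 0, against 52.1% of all tested genes. Every knockout library lay above every wild-type library for 16 of the 34 members, against 9.83% of all tested genes, and the opposite held for 0 members, against 10.8%. All 34 members passed the filter on low counts. At an unadjusted p under 0.05, 19 members were higher, against 9.98% of all tested genes, and 0 were lower; limma-voom and DESeq2 also called 0 lower. Rising members numbered 2 without knockout replicate 4, 1 without knockout replicate 5 and 3 without wild type replicate 4. Over all tested genes, 258 rose with every library kept and 24 to 418 when single libraries were left out. The lowest was 24 of 16440 without knockout replicate 5, and the highest 418 without wild type replicate 2. DESeq2 called 13 of the 34 higher, against 3.8% of all tested genes. Total-count scaling shifted the median of all tested genes to 0.14 and called 10 members higher, against 4.01% of all tested genes, with 62.4% of all calls upward in place of 31.7%. By the authors' deposited table, 13 of the 34 had an adjusted p under 0.05 with a positive log2 fold change, against 4.06% of its 15548 genes.

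**Figure D1:**
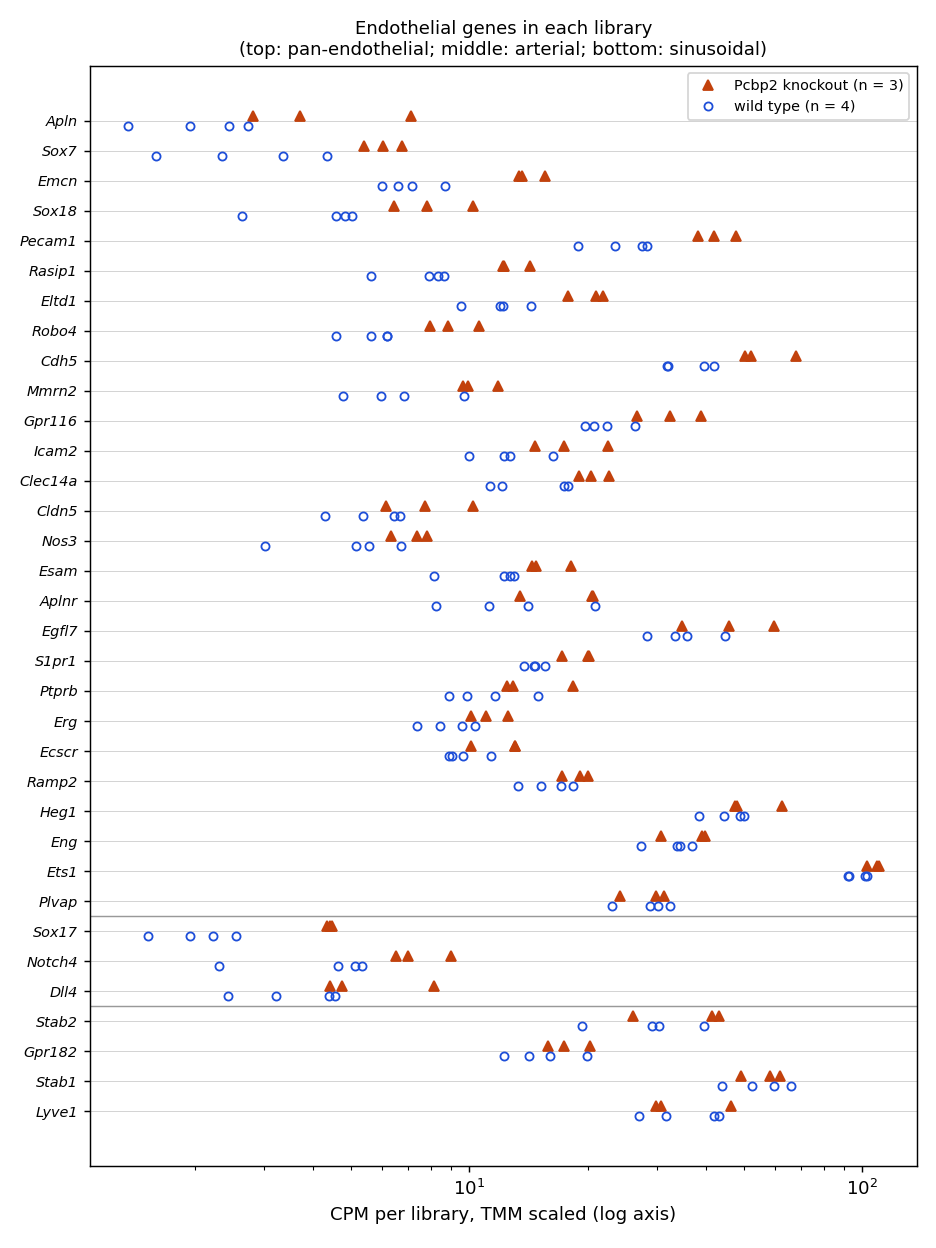
CPM of each endothelial gene in each library, on a log axis, with 3 knockout libraries as triangles and 4 wild-type libraries as circles. The knockout triangles lie wholly to the right of the wild-type circles for 16 of the 34 genes, and for none of the 4 sinusoidal genes at the bottom.

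Promoter sequence is shown for Emcn and Robo4, which rose, and for the sinusoidal genes Stab1 and Stab2, because ETS factors act on endothelial promoters in general. RefSeq promoters (build GRCm38.p6) were on hand for 16 of the 34 members. Each line gives the 250 bases before the start that RefSeq annotates, 5′ to 3′ on the gene's own strand, with capitals at each CAGGAA or CCGGAA, an ETS-type word, read on either strand. The windows are chr3:137340828-137341077 (+) for Emcn, chr9:37401722-37401971 (+) for Robo4, chr14:31168642-31168891 (-) for Stab1 and chr10:87007943-87008192 (-) for Stab2. RefSeq places the start differently from GENCODE for some genes, so the windows of Emcn, Robo4 and Stab2 reach into the gene as GENCODE bounds it.
Emcn: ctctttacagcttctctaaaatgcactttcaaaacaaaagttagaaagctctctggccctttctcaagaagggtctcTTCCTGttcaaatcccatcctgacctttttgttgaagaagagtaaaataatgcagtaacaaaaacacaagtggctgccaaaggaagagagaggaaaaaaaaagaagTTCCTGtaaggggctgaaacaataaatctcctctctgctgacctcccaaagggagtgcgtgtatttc
Robo4: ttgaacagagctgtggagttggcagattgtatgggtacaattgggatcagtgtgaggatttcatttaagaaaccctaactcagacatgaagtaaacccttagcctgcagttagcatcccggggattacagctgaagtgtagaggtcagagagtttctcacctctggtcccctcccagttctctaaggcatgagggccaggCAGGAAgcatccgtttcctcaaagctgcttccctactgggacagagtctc
Stab1: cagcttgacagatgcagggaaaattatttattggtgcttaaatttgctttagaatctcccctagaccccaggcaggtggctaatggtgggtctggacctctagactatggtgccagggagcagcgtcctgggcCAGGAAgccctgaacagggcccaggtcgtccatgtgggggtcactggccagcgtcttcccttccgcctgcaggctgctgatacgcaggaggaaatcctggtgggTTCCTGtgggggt
Stab2: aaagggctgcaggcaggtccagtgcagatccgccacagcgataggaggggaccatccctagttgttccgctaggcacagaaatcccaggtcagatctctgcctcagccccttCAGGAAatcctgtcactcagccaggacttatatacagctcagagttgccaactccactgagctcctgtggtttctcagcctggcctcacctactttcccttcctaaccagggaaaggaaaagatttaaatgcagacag
Emcn and Stab1 each held 2 such words, and Robo4 and Stab2 each held 1. An ETS-type word occurred in 12 of the 16 member promoters, against 35.1% of 32841 promoters of the same length, and in 4 of the 4 available promoters of members that rose. A SOX-type word, AACAAT on either strand, occurred in 1 of the 16, that of Emcn, against 9.43% of all promoters. A match to these letters is a description of the window and not evidence of binding.

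Emcn, endomucin, a mucin-like glycoprotein of veins and capillaries (ENSMUSG00000054690.11, chromosome 3, 137341067 to 137432185 in mm10), stood at 15.6, 13.3 and 13.6 CPM in knockout (replicates 3 to 5) and at 5.99, 8.66, 7.14 and 6.6 CPM in wild type (replicates 1 to 4). The lowest knockout library stood well above the highest wild-type library. Emcn rose 2.0-fold, with a log2 fold change of 1.0 ± 0.15 (SE; edgeR adjusted p = 0.00676). It was the 1 member that passed the threshold under each of the 16 alternative settings and omitted libraries tried, with adjusted p up to 0.0419.

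Pecam1, an adhesion molecule of endothelial junctions that platelets and leukocytes also carry, lies on chromosome 11 from 106654217 to 106750628. Pecam1 reached 47.8, 41.9 and 38.2 CPM in the knockout libraries and 18.9, 27.5, 28.4 and 23.5 CPM in the wild-type libraries. Its groups did not overlap, and its log2 fold change of 0.79 ± 0.15 (edgeR adjusted p = 0.0162) lost its call only without knockout replicate 5 (0.0575) among the settings tried. Cdh5, VE-cadherin, the cell adhesion protein of endothelial adherens junctions (chromosome 8, 104101625 to 104144511), had 67.6, 52.1 and 50.2 CPM in knockout and 31.9, 39.6, 42.0 and 32 CPM in wild type, in the same order of replicates. Knockout replicate 3 was the highest library, and the groups again did not overlap. The log2 fold change of Cdh5 was 0.64 ± 0.14 (edgeR adjusted p = 0.0325), a call that ended when knockout replicate 3, 4 or 5 or wild type replicate 1 or 4 was left out (adjusted p up to 0.0879).

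Robo4, an endothelial receptor of the Roundabout family that stabilises vessels (chromosome 9, 37401897 to 37415115), had 8.83, 10.6 and 7.93 CPM in knockout and 4.57, 6.17, 6.19 and 5.61 CPM in wild type. The libraries of the 2 groups did not overlap, and the log2 fold change was 0.69 ± 0.16 (edgeR adjusted p = 0.0398). The Robo4 call ended without any one of 6 of the 7 libraries, wild type replicate 2 being the exception (adjusted p up to 0.135). Eltd1, an adhesion G protein-coupled receptor also called Adgrl4 (chromosome 3, 151437887 to 151545086), had 21.05, 21.8 and 17.8 CPM in knockout against 12.0, 9.52, 14.3 and 12.2 CPM in wild type. It rose 1.69-fold (log2 0.75 ± 0.15, edgeR adjusted p = 0.0203), a call lost without knockout replicate 4 or 5 or wild type replicate 4 (up to 0.0721). Rasip1, a Ras-interacting protein needed for the opening of vessel lumens (chromosome 7, 45627488 to 45639093), had 12.2, 14.2 and 12.1 CPM in knockout against 5.62, 8.62, 7.91 and 8.30 CPM in wild type. All 3 knockout libraries exceeded all 4 wild-type libraries, with a log2 fold change of 0.76 ± 0.16 (edgeR adjusted p = 0.0275). That call ended without knockout replicate 4 or 5 or wild type replicate 3 or 4 (up to 0.099). Rasip1 shares 20.4% of its exon bases with Izumo1 on the same strand in GENCODE M21, so its reads carry some uncertainty.

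Beneath the threshold, the remaining junction and surface genes ranged in log2 fold change from -0.01 for Plvap to 0.62 for Mmrn2. Mmrn2, an extracellular matrix protein of endothelium, had 9.64 to 11.9 CPM in knockout and 4.77 to 9.69 CPM in wild type, with an edgeR adjusted p of 0.13, so 1 wild-type library lay just above the lowest knockout library. Clec14a, a C-type lectin-like protein of endothelium that binds Mmrn2, had 19.0 to 22.6 CPM in knockout and 11.3 to 17.8 CPM in wild type (adjusted p in edgeR = 0.13). Clec14a and Esam, an endothelial junction protein, had every knockout library above every wild-type one without passing the test. Cldn5, the tight junction claudin of endothelium, had a log2 fold change of 0.49 ± 0.21, and Icam2, an adhesion ligand for leukocytes, 0.51 ± 0.19, both with overlapping groups. Ptprb, the phosphatase of VE-cadherin and Tie2 also called VE-PTP, had 0.36 ± 0.20, and Heg1, a transmembrane partner of the CCM complex, had 0.21 ± 0.13. Eng, endoglin, a co-receptor for BMP9, averaged 36.5 ± 5.07 CPM in knockout and 33.1 ± 4.06 CPM in wild type (log2 0.14 ± 0.13, edgeR adjusted p = 0.591). Egfl7, a secreted protein of endothelial matrix whose gene hosts miR-126, had a log2 fold change of 0.39 ± 0.19, and Ecscr, an endothelial surface regulator of chemotaxis, had 0.31 ± 0.15.

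The SOXF transcription factors, which act together in endothelial and arterial identity, had among the largest fold changes of the set. Sox17 (chromosome 1, 4490931 to 4497354) had 4.35, 4.41 and 4.48 CPM in the knockout libraries and 1.52, 1.95, 2.55 and 2.23 CPM in the wild-type libraries. The knockout values were nearly equal to each other and all above wild type. Sox17 rose 2.13-fold (log2 1.09 ± 0.21, edgeR adjusted p = 0.0179), a call lost without knockout replicate 4 or 5 (up to 0.0903), and 16.8% of its exon bases lie opposite a processed transcript on the other strand.

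Sox7 had 6.05, 5.41 and 6.73 CPM in knockout against 1.59, 4.34, 3.37 and 2.35 CPM in wild type, a log2 fold change of 1.05 ± 0.29 that did not pass (edgeR adjusted p = 0.0693). Sox18 had 6.44, 10.2 and 7.78 CPM in knockout against 2.64, 5.03, 4.82 and 4.58 CPM in wild type, a log2 fold change of 0.93 ± 0.24 (edgeR adjusted p = 0.0531). Both had non-overlapping groups, and wild type replicate 1 was the lowest library for each. Sox18 passed under 7 and Sox7 under 5 of the 16 alternatives, DESeq2 among them. The ETS factors of the set were flatter: Erg, the ETS factor that maintains endothelial identity, had a log2 fold change of 0.33 ± 0.15 (edgeR adjusted p = 0.236), and Ets1, which lymphoid cells also use, 0.14 ± 0.09 (edgeR adjusted p = 0.362).

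In the arterial class, the Notch ligand Dll4 had 4.75, 8.14 and 4.42 CPM in knockout against 2.44, 3.22, 4.54 and 4.39 CPM in wild type (log2 0.66 ± 0.28, edgeR adjusted p = 0.20). Its highest value came from knockout replicate 4, and its groups overlapped. Notch4, the Notch receptor most restricted to endothelium, had 6.99, 9.0 and 6.50 CPM in knockout against 2.30, 5.34, 5.12 and 4.62 CPM in wild type (log2 0.78 ± 0.26, edgeR adjusted p = 0.116). The Notch4 groups did not overlap, and Notch4 passed under 2 of the 16 alternatives, DESeq2 among them. The 3 arterial members had a median log2 fold change of 0.78, and 1 of the 3, Sox17, passed in edgeR. That count was 0 when either knockout replicate 4 or knockout replicate 5 was left out.

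Gpr116, S1pr1, Apln, Aplnr, Nos3 and Ramp2, the remaining signalling genes of the pan-endothelial class, did not pass in edgeR, while DESeq2 called Gpr116 (adjusted p = 0.0135), Apln (0.0226) and S1pr1 (0.0269). Gpr116, an adhesion G protein-coupled receptor also called Adgrf5, had 38.8, 32.3 and 26.7 CPM in knockout against 20.8, 22.4, 26.4 and 19.7 CPM in wild type (log2 0.55 ± 0.15, edgeR adjusted p = 0.0636). Its lowest knockout library lay just above its highest wild-type library. S1pr1, the sphingosine-1-phosphate receptor that steadies endothelial junctions, ranged from 17.2 to 20.2 CPM in knockout and from 13.8 to 15.6 CPM in wild type (log2 0.38 ± 0.11, edgeR adjusted p = 0.0753). Apln, the apelin peptide made by sprouting tip cells, had 2.81, 7.10 and 3.71 CPM in knockout against 1.35, 2.44, 1.94 and 2.74 CPM in wild type (log2 1.10 ± 0.34, edgeR adjusted p = 0.092). It had the largest log2 fold change of the 34, but knockout replicate 4 stood far above the other libraries, and the value was 0.61 without it. Its receptor Aplnr had 13.4 to 20.6 CPM in knockout and 8.23 to 20.9 CPM in wild type, with a log2 fold change of 0.41 ± 0.28. Nos3, endothelial nitric oxide synthase, had 0.48 ± 0.24, and Ramp2, the partner of the adrenomedullin receptor, 0.23 ± 0.13. Ramp2 shares 33.4% of its exon bases with Vps25 on the same strand, and 25.2% of the exon bases of Nos3 lie opposite an antisense gene.

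The sinusoidal members did not pass the test, and their levels overlapped between the groups. Stab1, stabilin-1, a scavenger receptor of sinusoidal endothelium and of some macrophages (chromosome 14, 31139013 to 31168641), had levels of 58.1, 61.6 and 49.1 CPM in the knockout libraries and 44.0, 66.0, 59.4 and 52.5 CPM in the wild-type libraries. Its log2 fold change was 0.02 ± 0.14 (edgeR adjusted p = 0.953). Stab2, stabilin-2, the hyaluronan-clearing scavenger receptor of sinusoids (chromosome 10, 86841198 to 87008025), had 43.2, 41.5 and 26.0 CPM in knockout against 29.2, 19.4, 39.5 and 30.3 CPM in wild type (log2 0.32 ± 0.23, edgeR adjusted p = 0.463). Knockout replicates 3 and 4 were the highest Stab2 libraries, and knockout replicate 5 lay among the wild-type values.

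Lyve1, a hyaluronan receptor of lymphatic and sinusoidal endothelium that some macrophages also carry (chromosome 7, 110850607 to 110863239), had 46.4, 29.8 and 30.8 CPM in knockout against 41.9, 27.1, 43.1 and 31.7 CPM in wild type (log2 -0.01 ± 0.20, edgeR adjusted p = 0.982). Gpr182, an atypical chemokine receptor of sinusoidal endothelium (chromosome 10, 127747276 to 127751732), had 20.3, 17.4 and 15.8 CPM in knockout against 14.2, 12.3, 19.9 and 16.1 CPM in wild type (log2 0.20 ± 0.17, edgeR adjusted p = 0.54). Plvap, which forms the diaphragms of fenestrae and was counted as pan-endothelial, had 29.9, 31.3 and 24.2 CPM in knockout against 23.1, 30.1, 32.4 and 28.8 CPM in wild type (log2 -0.01 ± 0.14, edgeR adjusted p = 0.978). The sign of Lyve1 and of Plvap turned positive under total-count scaling, and that of Stab1 turned negative under the length correction, so no direction is given for these 3 genes.

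**Figure D2:**
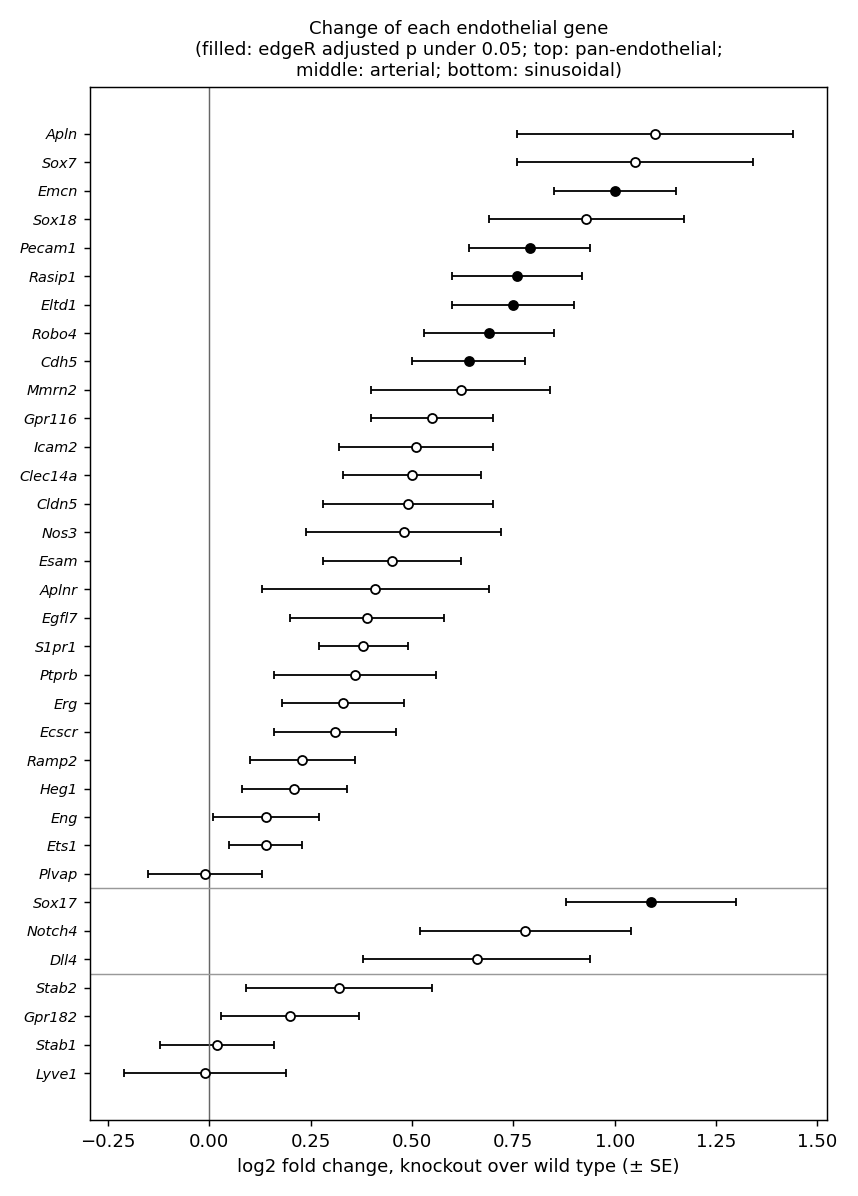
Log2 fold change of each endothelial gene, knockout over wild type, with its standard error from the edgeR fit of 3 knockout and 4 wild-type libraries, where filled points passed an adjusted p of 0.05. The 7 filled points lie between 0.64 and 1.09, and the 4 sinusoidal genes at the bottom lie between -0.01 and 0.32.

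Set side by side, 0 of 4 sinusoidal members, 1 of 3 arterial members and 6 of 27 pan-endothelial members rose. Of all tested genes 1.59% rose, or 258, and 24 without knockout replicate 5. The count of pan-endothelial members was 2 without knockout replicate 4, 1 without knockout replicate 5 and 2 without wild type replicate 4, and the sinusoidal count was 0 under every alternative tried. The median log2 fold change was 0.11 for the sinusoidal members, 0.78 for the arterial members and 0.49 for the pan-endothelial members. The sinusoidal median minus the pan-endothelial median ran from -0.45 to -0.27 when single libraries were left out. The summed sinusoidal CPM was 122 to 168 in knockout and 125 to 162 in wild type, so the ranges nearly coincided. The summed pan-endothelial CPM was 613 to 678 in knockout and 419 to 540 in wild type, without overlap. Whether the classes differ in their response was not tested, because the members were chosen with earlier results known and the sinusoidal class holds 4 genes.

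By length-scaled level, in CPM per kilobase of exon, the sinusoidal genes were spread over the order of the 34 members. Lyve1 ranked 5 in knockout and 2 in wild type, Stab1 14 in knockout and 9 in wild type, Gpr182 18 in knockout and 15 in wild type, and Stab2 20 in knockout and 18 in wild type. In knockout the order began with Plvap at 14.3, Cdh5 at 13.5, Egfl7 at 13.0, Ets1 at 12.7 and Lyve1 at 12.2 CPM per kilobase. In wild type it began with Plvap at 14.4, Lyve1 at 12.3, Ets1 at 11.5, Egfl7 at 9.92 and Cdh5 at 8.65 CPM per kilobase. Sox17 was the least abundant member in both groups, at 0.925 CPM per kilobase in knockout and 0.432 CPM per kilobase in wild type. Lengths were taken from all annotated exons, so genes with little-used exons are understated.

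Most members shared their lowest wild-type library. Wild type replicate 1 was the lowest wild-type library for 26 of the 34 members and the highest for 0, while wild type replicate 3 was the highest for 19. The median over the members of the log2 difference from the wild-type mean was 0.48, 0.54 and 0.42 in knockout replicates 3 to 5, against -0.30, 0.10, 0.19 and 0.07 in wild type replicates 1 to 4. Without wild type replicate 1 the members' median log2 fold change was 0.38, and 5 members were called. Across the single omissions 24 to 418 of all tested genes rose. The sinusoidal members followed another order, with 0.40, 0.18 and -0.15 in knockout and -0.05, -0.35, 0.33 and 0.00 in wild type. Among the other lists, wild type replicate 1 had the lowest wild-type median for other endothelial (-0.22) and stellate and mesothelial genes (-0.27). It had the highest for erythroid (0.37), macrophage (0.23) and other sinusoidal genes (0.16). Whether the members shared more than a shift of the whole library was not tested.

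Within the knockout group, the members differed between replicates 4 and 3. Knockout replicate 4 minus knockout replicate 3 gave a log2 difference of 1.32 for Apln, 0.77 for Dll4, 0.77 for Egfl7, 0.73 for Cldn5 and 0.66 for Sox18. The same difference was -0.64 for Lyve1, -0.61 for Aplnr and -0.55 for Ptprb. Across the 34 members it had a Spearman rho of -0.46 with exon length, and across 16075 tested genes with a length rho was -0.25, both as descriptions over genes of the same 2 libraries. The log2 fold change of knockout over wild type had a rho of 0.00 with length over the members and 0.17 over all tested genes. With a length correction, added after the data were seen, 8 members were called, the same 7 and Sox18.

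Other endothelial genes, from a list of 48 that shares no gene with the 34, were higher in part. Of 47 tested, 5 rose and 0 fell, against 1.59% and 3.43% of all tested genes, with a median log2 fold change of 0.40. Efnb2, ephrin-B2, the arterial ephrin ligand, had 58.4, 64.4 and 52.5 CPM in knockout against 24.1, 36.8, 28.1 and 29.0 CPM in wild type (log2 0.99 ± 0.14, edgeR adjusted p = 0.00595), and it passed under all 16 alternatives. Flt1, a VEGF receptor, rose by a log2 fold change of 0.80 ± 0.18, Cd93, an endothelial lectin-like receptor, by 0.68 ± 0.15, Bcl6b, a transcriptional repressor, by 0.75 ± 0.15 and Cyyr1, a cysteine- and tyrosine-rich membrane protein, by 1.01 ± 0.25. These 4 calls each ended without 3 to 6 of the single libraries, among them knockout replicate 5 and wild type replicate 4 for every one of the 4. Among single libraries left out, knockout replicate 3 gave 3 that rose and knockout replicate 5 gave 1. Wild type replicates 1, 3 and 4 gave 2, 3 and 1. With total-count scaling 13 rose, against 4.01% of all tested genes, and with DESeq2 17 rose, against 3.8%.

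Other sinusoidal genes showed no common direction. Of 19 tested, 1 rose and 2 fell, against 1.59% and 3.43% of all tested genes, with a median log2 fold change of -0.01. At an unadjusted p under 0.05 in edgeR, 3 were higher and 4 lower, against 1619 and 1916 of the 16226 tested genes. The part of cells other than sinusoidal endothelium in these values was not tested. Wnt2, a WNT ligand of sinusoidal endothelium, had 4.45, 5.18 and 9.58 CPM in knockout against 2.03, 1.61, 1.4 and 2.37 CPM in wild type (log2 1.79 ± 0.30, edgeR adjusted p = 0.0103). Its call ended without knockout replicate 5 (0.0526). Rspo3, an enhancer of WNT signalling, had 35.7, 37.3 and 29.5 CPM in knockout against 63.6, 66.0, 55.5 and 58.5 CPM in wild type, with a log2 fold change of -0.83 ± 0.11 (edgeR adjusted p = 0.00563), and passed under all 16 alternatives. Dpp4, a peptidase that hepatoblasts also make, had a log2 fold change of -0.56 ± 0.14 (edgeR adjusted p = 0.0453) and lost its call under 8 of 16 alternatives, leaving out any one library but wild type replicate 2 among them.

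**Figure D3:**
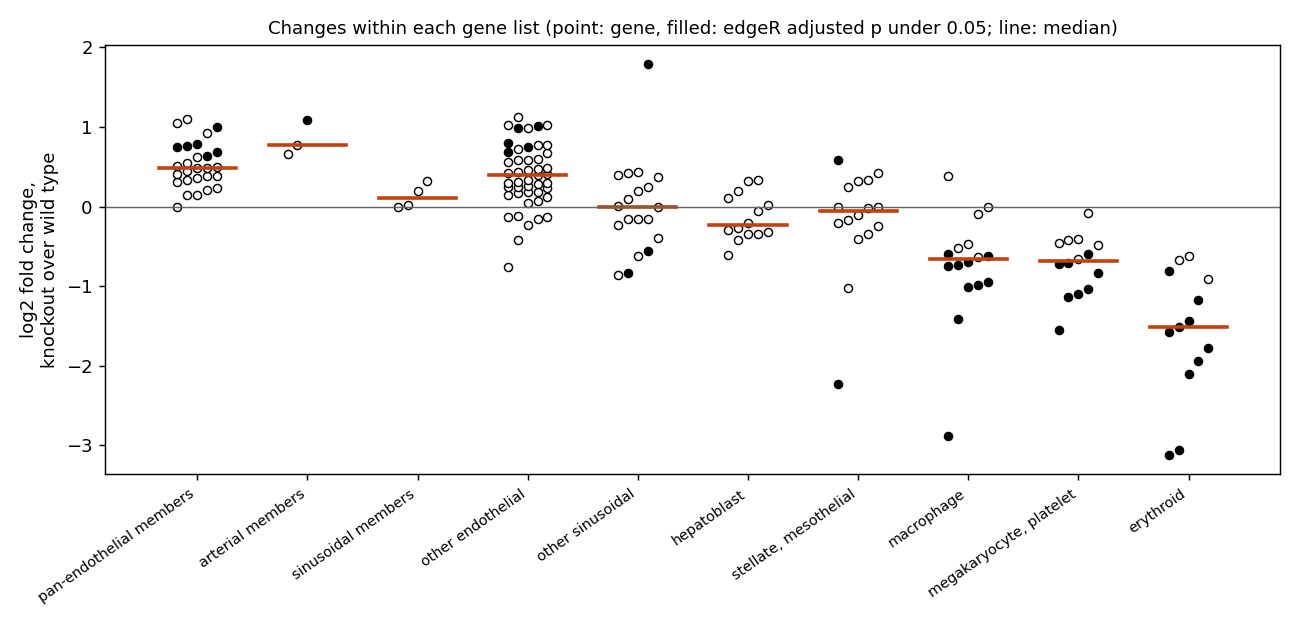
Log2 fold change of every tested gene in each list, knockout over wild type, with filled points for an edgeR adjusted p under 0.05 and a line at each list's median. The medians lie at 0.49 for the pan-endothelial and 0.40 for the other endothelial genes, at 0.11 and -0.01 for both sinusoidal lists, and at -0.66, -0.69 and -1.51 for macrophage, megakaryocyte and erythroid genes.

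Markers of blood cells were lower in the knockout livers, where 3.43% of all tested genes fell. Of 13 erythroid genes tested 10 fell (median -1.51), of 16 macrophage genes 10 fell (median -0.66) and of 14 megakaryocyte and platelet genes 8 fell (median -0.69). The summed CPM of the erythroid list was 12160 to 16402 in knockout and 50019 to 89903 in wild type. That of the macrophage list was 204 to 249 in knockout and 321 to 393 in wild type, and that of the megakaryocyte list 286 to 299 in knockout and 440 to 591 in wild type. Falling macrophage genes numbered 6 with total-count scaling, 5 without knockout replicate 4 or wild type replicate 4 and 2 without knockout replicate 5. For megakaryocyte genes the count was 5 with total-count scaling, 3 when knockout replicate 4 or wild type replicate 3 was omitted, 4 when wild type replicate 4 was and 2 when knockout replicate 5 was. Erythroid genes numbered 6 without knockout replicate 5. With globin genes left out the count was also 6, but the list's globin genes, all called in the main fit, were then not tested. Of all tested genes, 556 fell with every library kept and 116 to 753 when single libraries were left out. The lowest of these, 116, was without knockout replicate 5. Pecam1, Esam, Icam2 and Erg are also known from megakaryocytes or blood progenitors, and Stab1 and Lyve1 from macrophages, and the part of these cells in the members' values was not tested. With globin genes left out of the library sizes and the fit, the same 7 members were called.

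Among 14 hepatoblast genes edgeR and limma-voom called 0 (median -0.24; 0 higher and 2 lower at an unadjusted p under 0.05 in edgeR), and DESeq2 called 1 lower, Apoa1, an apolipoprotein. Of 16 stellate and mesothelial genes 1 rose and 1 fell in edgeR (median -0.06), against 1.59% and 3.43% of all tested genes. Acta2, smooth muscle actin, rose, and Lrat, the retinol-esterifying enzyme of stellate cells, fell. The Acta2 call (edgeR adjusted p = 0.0483) ended under 7 of 16 alternatives, among them the omission of any one library but wild type replicate 2 (up to 0.155), and the Lrat call ended without knockout replicate 5 (0.079). Of 14 stem and progenitor genes edgeR called 0 (median 0.22), with 4 higher and 2 lower at an unadjusted p under 0.05. There, limma-voom called 1 higher (Mecom), and DESeq2 2 higher (Mecom and Angpt1) and 1 lower (Cd48). Of 8 lymphatic endothelial genes edgeR and limma-voom called 0 (median 0.07), with 2 higher and 1 lower at an unadjusted p under 0.05 in edgeR. DESeq2 called 1 of them higher (Itga9) and 1 lower (Pdpn). Prox1, Reln, Flt4, Foxc2 and Nrp2 of that list also stand in the hepatoblast, stellate or other endothelial lists. Of all 16226 tested genes, 1619 were higher and 1916 lower at an unadjusted p under 0.05 in edgeR. DESeq2 called 3.8% of all tested genes higher.

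**Figure D4:**
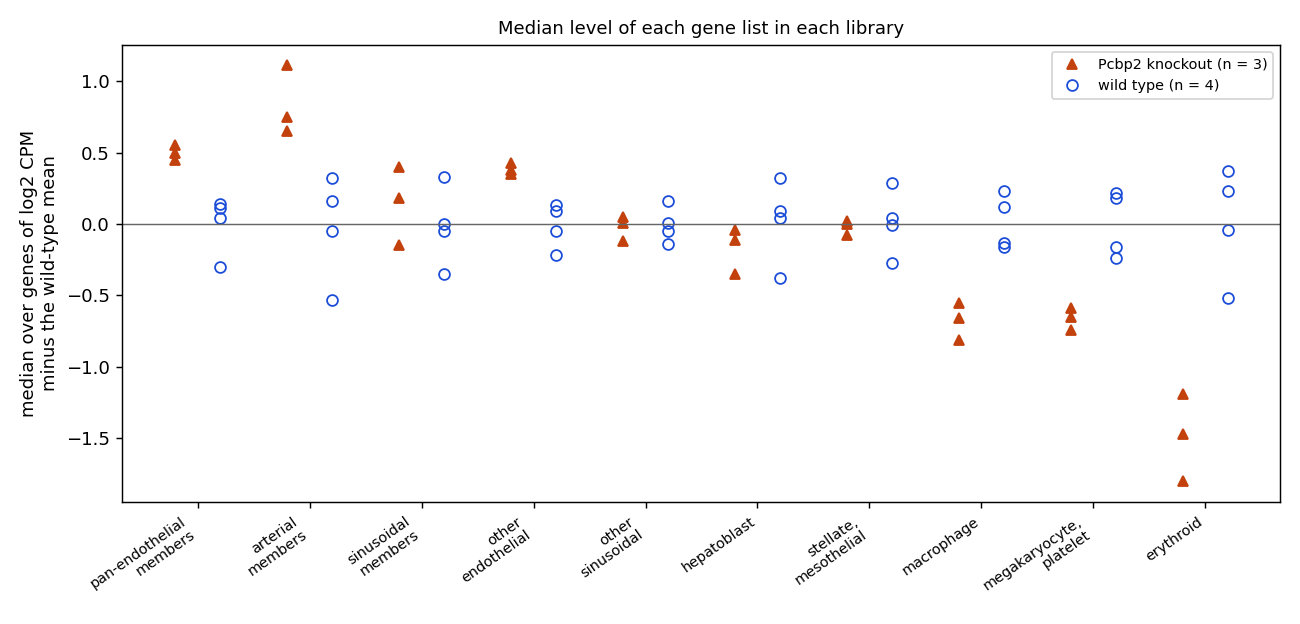
Median over each list's genes of log2 CPM minus the wild-type mean, per library, with 3 knockout libraries as triangles left of 4 wild-type libraries as circles. Pan-endothelial, arterial and other endothelial medians lie above every wild-type library in all 3 knockout libraries, both sinusoidal lists overlap, and macrophage, megakaryocyte and erythroid medians lie below.

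Heart muscle genes were also present, in both groups and for some genes unevenly in the knockout libraries. Heart holds its own endothelium and endocardium. Myl7, picked after its values were seen, had 39.4 to 97.7 CPM in knockout and 39.2 to 54.7 CPM in wild type. Myh6, the atrial myosin heavy chain, had 37.9, 2.18 and 11.4 CPM in the knockout libraries, in order of replicate, and 0.305, 0.220, 0.274 and 0.782 CPM in wild type. Of 13 cardiac muscle and endocardial genes 3 rose (Myh6, Nppa and Myl3) and 1 fell (Plac8) in edgeR, against 1.59% and 3.43% of all tested genes. The list's median log2 fold change was 0.96, and its summed CPM was 173 to 502 in knockout and 178 to 252 in wild type. With limma-voom Myh6 (adjusted p = 0.0868) and Nppa (0.0809) did not pass. The Myl3 call ended without knockout replicate 3 or 5 or wild type replicate 1 or 3 (up to 0.106), and the Plac8 call without knockout replicate 4 or 5 or wild type replicate 1 (up to 0.135) and under the length correction. The endocardial markers Npr3 and Nfatc1, picked after their values were seen, had log2 fold changes of 0.23 and 0.28 (edgeR adjusted p = 0.427 and 0.296). Without knockout replicate 3, the library with the most Myh6, 7 members were called: Sox17, Pecam1, Emcn, Rasip1 and Eltd1 remained, Cdh5 and Robo4 were lost, and Sox18 and Apln were gained. Of all tested genes, 24 to 418 rose over the single omissions. The members' median log2 difference from the wild-type mean was 0.48, 0.54 and 0.42 in knockout replicates 3 to 5. Myh6 was lowest in knockout replicate 4 at 2.18 CPM, still above its highest wild-type level of 0.782 CPM. The part of heart tissue in the members' values was not tested.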

How the data were processed

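Fetal liver RNA was sequenced after Trizol extraction with a TruSeq stranded mRNA kit, per the labels. The submitters' processing notes name cutadapt 1.4.2, TopHat2, HTSeq, DESeq2, DESeq and build mm10, without settings, and the strand setting used in counting was not stated there. As deposited by the authors, each library has raw read counts per gene, with 5 HTSeq summary lines that were left out here. The authors' deposited table gives a mean signal of normalized counts, a log2 fold change with its standard error, a Wald score and a p-value, unadjusted and adjusted.

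Names came from that table for 15548 identifiers and from GENCODE M21 for 22194, and 1182 had none. GENCODE also gave mm10 coordinates and exon lengths. In R 4.3.3, edgeR 4.0.16 kept 16226 genes by filterByExpr and removed 22698. Libraries were TMM scaled, and a quasi-likelihood model with genotype alone was fitted to all 7, with Benjamini-Hochberg adjustment and a threshold of 0.05. Alternatives used limma 3.58.1, DESeq2 1.42.0, other scalings and filters, globin genes left out, a replicate block, each library left out and, added after the data were seen, a length correction. The edgeR step was tested on simulated data. All 34 members are described; of the other endothelial and sinusoidal lists every called gene is named, while the blood cell lists are given as counts. The members and lists were chosen with earlier results of these data known.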

Additional observations from a re-analysis of the deposited data

Results flagged for a closer look

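A single wild-type library stood far from the other 3 in 7 of 92 sets of wild-type values examined, where chance gives about 1 in 20. Wild type replicate 1 was low for Esam (8.125 CPM), for the hepatoblast gene Dlk1 (699.9 CPM) and for Pcbp2 itself (164.8 CPM), and high for Dpp4 (41.74 CPM). Wild type replicate 2 stood apart for Csf1r, the macrophage growth factor receptor (88.2 CPM), and was high for Acta2 (118.9 CPM). Wild type replicate 4 was high for Myh6 (0.782 CPM). Esam is the 1 endothelial member among them, and its log2 fold change was 0.45 with all libraries and 0.32 without wild type replicate 1.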

How the results depend on the processing

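Over 16 alternatives, 31 of the 34 members had a positive log2 fold change throughout, and no alternative called a member lower or a sinusoidal member higher. Total-count scaling gave 651 higher genes, 13 other endothelial genes higher and 1 other sinusoidal gene lower, and turned Lyve1 to 0.12 and Plvap to 0.11. Without a filter on low counts 9 other endothelial genes were higher. Requiring 5 CPM in 3 libraries left 31 members tested, without Sox17, and gave 0 arterial and 0 other sinusoidal genes higher. DESeq2 called 13 members, of which 11 were pan-endothelial and 2 arterial, with 617 of all tested genes higher in KO and 1057 of all tested genes lower in KO, and 17 other endothelial genes higher and 1 lower. The length correction turned Stab1 to -0.05, Lyve1 to 0.02 and Plvap to 0.07. The cause of these differences was not tested, except that fewer genes were tested under the stricter filter.

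With the replicate block 12 members were called, 10 pan-endothelial and 2 arterial. It also gave 852 of all tested genes higher in KO and 1204 of all tested genes lower in KO, 15 other endothelial genes higher and 2 lower, and 2 other sinusoidal genes higher, and put Lyve1 at 0.01 and Plvap at 0.00. The groups share only replicate numbers 3 and 4, whose same-number correlations of 0.32 and 0.26 were the highest of 12 knockout and wild-type pairs; the other 10 ran from -0.33 to 0.15. The labels do not say what a number stands for, and with 2 shared numbers the data cannot settle whether they pair the libraries.

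Leaving out single libraries gave 1 to 9 members higher, 1 to 8 pan-endothelial, 0 to 1 arterial and of all tested genes 24 to 418 higher and 116 to 753 lower. It gave 1 to 7 other endothelial genes higher and 0 to 1 lower, and 0 to 1 other sinusoidal genes higher and 1 to 2 lower. The log2 fold change ran from -0.08 to 0.11 for Stab1, from -0.25 to 0.10 for Lyve1 and from -0.10 to 0.10 for Plvap. Apln, with 93 to 322 reads in knockout libraries and 40 to 119 in wild-type libraries, ran from 0.61 to 1.34.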
